A study of Mus musculus with 36 samples.

Results

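The transcripts described here are 164 of the 115270 listed in the RNA-seq files. They are those whose level in wild-type (WT) mouse cortical neurons was raised by potassium chloride (KCl) both after 1 h and after 6 h. Levels are given in CPM, the estimated count of a transcript divided by the total of its library and multiplied by 1000000. Members were chosen by these levels: a transcript was kept if its mean in 1 h KCl was at least 3 CPM and at least 2 times the mean at rest, and if its mean in 6 h KCl was at least 2 times that of the 6 h control. The lowest KCl library also had to lie above the highest control library at both times. Of 171 transcripts that met these conditions, 7 were on a list of 11 identifiers left out by the rule. The condition at 1 h alone, without that at 6 h, was met by a further 390 transcripts. A further 1817 with at least 3 CPM in 6 h KCl met the condition at 6 h and not that at 1 h.

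Neurons were taken from the cortex of mouse embryos at E16.5 and kept for 7 days in vitro before RNA was collected. WT neurons were studied in 4 states. Resting neurons (5 libraries) were held for 2 h in TTX, which blocks voltage-gated sodium channels, and APV, which blocks NMDA receptors, so that activity was silenced. Neurons in 1 h KCl (5 libraries) had the same 2 h of TTX/APV and KCl for 1 h. The 6 h control (4 libraries, called 7 h TTX/APV here) had 7 h of the blockers, and 6 h KCl (3 libraries) had 7 h of the blockers and KCl for 6 h. Neurons of Actl6b-/- embryos (KO, 7 libraries) were studied only at rest, after 2 h of TTX/APV. All groups, the controls included, thus carried the blockers, and the 1 h and 6 h experiments differed in the time in them as well as in the time in KCl. Actl6b encodes a subunit of the BAF chromatin remodelling complex that is found in neurons, and the labels give a loss on both copies without describing the allele.

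Raised external potassium depolarises neurons and opens voltage-gated calcium channels. The calcium that enters activates kinases and transcription factors that switch on activity-regulated genes. Early-response genes need no new protein for this, and many encode transcription factors. Late-response genes follow and include many with roles at synapses and in secreted signals. The files used here do not pair transcript identifiers with genes, so it was not analysed here which members belong to these classes, what their products do, or how many are transcripts of the same gene. Members are therefore called by their length, and only the identifiers of the pair with the highest CPM in 1 h KCl are given. Levels of Actl6b and of cell type markers were not analysed here either, so neither the genotype labels nor the neuronal identity of the cultures was checked. In such bulk samples a change in the number of cells of a type and a change in RNA per cell cannot be told apart.

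Libraries held 5873349 to 7578714 estimated counts in resting WT, 6135380 to 7480901 in KO and 6902985 to 8015063 in 1 h KCl. The 6 h experiment was shallower, with 3569516 to 4020984 in 7 h TTX/APV and 3627450 to 4051922 in 6 h KCl. Over a whole group, 3 counts corresponded to 0.0856 CPM at rest and to 0.195 CPM in 7 h TTX/APV. A control mean resting on 3 or fewer counts was raised to at least that floor in the folds of means used for medians, counts, ranks and plots, which applied to 8 members at 1 h and 13 at 6 h. Of these, 2 and 7 were listed at 0 in all control libraries. Where such a member with 1 to 3 control counts is described, the ratio of the counts themselves is given with its interval and is not on the same footing as those folds.

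Summed over the 164 members, the level was 1326 ± 181 CPM at rest (SD, n = 5) and 5598 ± 245 CPM in 1 h KCl (SD, n = 5). It was 1389 ± 40.2 CPM in 7 h TTX/APV (SD, n = 4) and 5587 ± 630 CPM in 6 h KCl (SD, n = 3). The members thus made up 0.133% of a resting WT library and 0.560% of a 1 h KCl library, and 0.139% and 0.559% in the later pair of groups. Both controls lay near each other and both KCl groups lay near each other. The sum was not the work of 1 transcript: without the member highest in 1 h KCl it was 1315 CPM at rest and 5099 CPM in 1 h KCl. The 10 highest members of each group held between 38.0% and 44.1% of its sum. The rule chose the members for these differences, so they are given as a description without a test.

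**Figure D1:**
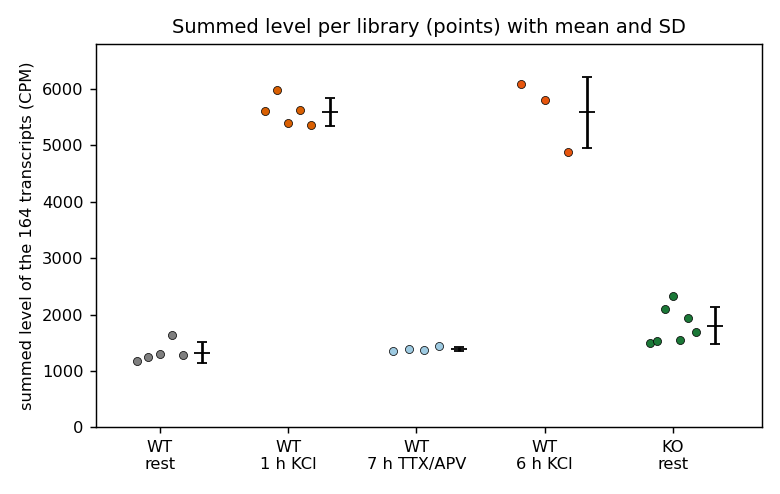
Summed CPM of the 164 members in each library (points; mean and SD beside them) in the 4 WT states and in resting KO. The 1 h KCl libraries sit between 5366 and 5980 CPM and the resting WT libraries between 1172 and 1639 CPM, with resting KO libraries at 1493 to 2328 CPM.

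The size of the rise differed widely among members. With low controls set to the floor, the fold of means at 1 h ran from 2.02 to 201, with a median of 3.65 and quartiles of 2.62 and 8.55. At 6 h it ran from 2.00 to 280.3, with a median of 3.54 and quartiles of 2.70 and 6.86. At 1 h 61 members lay between 2-fold and 3-fold, 65 between 3-fold and 10-fold and 38 at 10-fold or more, and at 6 h these numbers were 58, 81 and 25. Large rises were thus a minority at both times. The median log2 fold change from edgeR was 1.87 at 1 h over the 162 members that passed its filter on low counts, beside 0.00 over all transcripts. At 6 h it was 1.93 over 146 members, beside -0.03. With libraries scaled by their totals in place of TMM, the 6 h median of all transcripts moved to -0.23 and that of the members to 1.72.

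A large rise at 1 h did not always go with a large rise at 6 h. The fold was larger at 6 h for 79 members and smaller for 85, and for 74 the 2 folds lay within 1.5 times of each other. In 16 members the fold at 1 h was at least 4 times that at 6 h, and in 6 the fold at 6 h was at least 4 times that at 1 h. At both times 15 members rose 10-fold or more, whereas 27 stayed under 3-fold at both. Members thus differed in which time gave the larger fold, and no measure of agreement between the 2 rankings was computed.

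**Figure D2:**
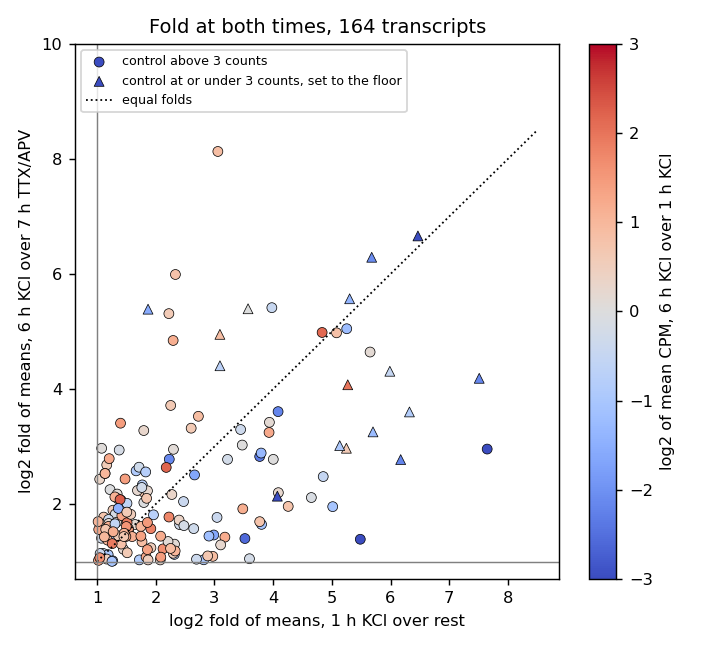
Log2 fold of mean CPM for each member, 1 h KCl over rest (x axis) and 6 h KCl over 7 h TTX/APV (y axis), coloured by the log2 ratio of 6 h KCl to 1 h KCl; triangles have a control mean of at most 3 counts, set to the floor, and grey lines mark the 2-fold limit of the rule. Members lie on both sides of the dotted line of equal folds, 79 above it and 85 below.

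The same variety was seen when the 2 KCl groups were set side by side. The mean was higher in 6 h KCl than in 1 h KCl for 99 members, at least 2 times as high for 41 and at most 1/2 as high for 24. The median ratio was 1.20 and the range 0.0387 to 4.88. In 58 members (35.4%) every 6 h KCl library lay above every 1 h KCl library, beside 20.1% of all transcripts with at least 3 CPM in 1 h KCl. In 33 members (20.1%) every 6 h KCl library lay below, beside 33.6%. The controls differed too: in 45 members (27.4%) every 7 h TTX/APV library lay above every resting library, beside 20.9% of those transcripts, and in 19 (11.6%) below, beside 23.7%. The rule used all of these libraries, so nothing is read from these shares, and time in KCl, time in the blockers and depth cannot be told apart between the 2 experiments.

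The transcript with the lowest ratio, at 0.0387, was ENSMUST00000165033.1, 3036 bases long. At rest its libraries gave 7.33, 4.52, 14.8, 16.9 and 12.2 CPM. In 1 h KCl they gave 478, 444, 476, 563 and 534 CPM, the highest CPM of any member and a 44.8-fold higher mean. In 7 h TTX/APV the libraries gave 9.20, 6.50, 7.09 and 6.76 CPM and in 6 h KCl 17.6, 21.0 and 19.4 CPM, 2.62-fold higher. Its level in 6 h KCl was thus far below that in 1 h KCl and just above the highest resting library. The 3629-base transcript showed a similar order of groups. It was at 0 to 0.492 CPM in resting libraries, at 34.0, 29.6, 32.7, 45.8 and 40.7 CPM in 1 h KCl, and at 2.09, 3.56 and 2.15 CPM in 6 h KCl. Its folds of means were 201 at 1 h, the largest among members with more than 3 control counts, and 7.76 at 6 h.

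ENSMUST00000047906.9, 4191 bases long, had the second highest CPM in 1 h KCl. Its resting libraries gave 34.5, 35.8, 29.4, 36.5 and 31.6 CPM and its 1 h KCl libraries 274, 319.9, 256, 236 and 246 CPM, a 7.93-fold rise. In 7 h TTX/APV it was at 28.6, 35.1, 32.3 and 29.7 CPM and in 6 h KCl at 101, 96.9 and 61.6 CPM, 2.75-fold higher. Its 6 h KCl libraries thus lay above both control groups and below every 1 h KCl library.

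Other leading members went the opposite way and were higher in 6 h KCl than in 1 h KCl. The 5713-base transcript had 26.0, 28.6, 42.7, 76.1 and 37.8 CPM at rest and 256, 313, 238, 254 and 222 CPM in 1 h KCl, 6.08-fold higher. It had 52.3, 34.1, 38.1 and 34.5 CPM in 7 h TTX/APV and 457, 413 and 320.2 CPM in 6 h KCl, 9.98-fold higher. Its 6 h KCl libraries all lay above its 1 h KCl libraries. The 12629-base transcript, the longest member, rose from 61.1, 72.5, 80.7, 119 and 68.0 CPM at rest to 208, 274, 173, 229 and 175 CPM in 1 h KCl, 2.64-fold. It rose from 57.1, 69.5, 49.0 and 42.9 CPM in 7 h TTX/APV to 694, 605 and 436 CPM in 6 h KCl, 10.6-fold. For both transcripts the resting library 4-3 was the highest of its group and the 6 h KCl library 4-4 the lowest. (Libraries are named by the code in their titles, whose meaning is not given.)

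A further 3 of the 8 members with the highest CPM rose between 2-fold and 4-fold at both times. The 11013-base transcript had 69.0, 73.6, 68.6, 106 and 74.2 CPM at rest and 178, 184, 167, 165 and 151 CPM in 1 h KCl, 2.16-fold higher. Its level was 98.5, 80.7, 76.1 and 73.7 CPM in 7 h TTX/APV and 293, 269 and 282 CPM in 6 h KCl, 3.42-fold higher. The 4545-base transcript had similar folds at both times, 2.15 and 2.21. Its means were 72.9 ± 8.46 CPM at rest (SD, n = 5), 157 ± 7.55 CPM in 1 h KCl (SD, n = 5), 57.5 ± 4.40 CPM in 7 h TTX/APV (SD, n = 4) and 127 ± 18.6 CPM in 6 h KCl (SD, n = 3). The 9288-base transcript rose 2.73-fold at 1 h and 2.32-fold at 6 h and is described with the KO libraries.

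**Figure D3:**
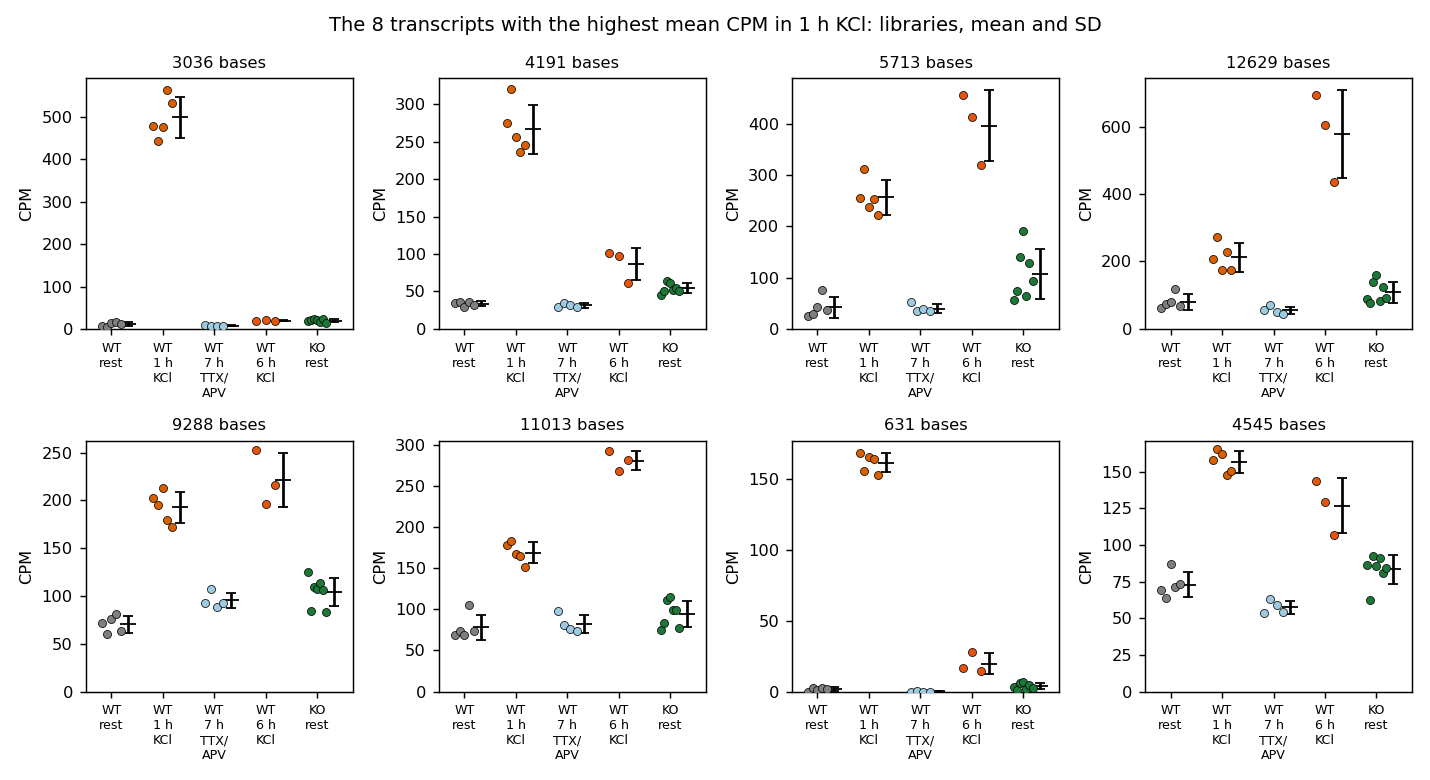
CPM in every library (points; mean and SD beside them) for the 8 members with the highest mean CPM in 1 h KCl, each panel named by transcript length with its own linear axis from 0. The 3036-base member has a mean of 499 CPM in 1 h KCl and 19.3 CPM in 6 h KCl, while the 12629-base member has 212 and 579 CPM.

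Many of the largest folds came from members that were almost silent without KCl. The 631-base transcript was at 0, 2.83, 1.36, 2.86 and 2.05 CPM at rest and at 168, 155, 166, 164 and 153 CPM in 1 h KCl, 88.5-fold higher. In 7 h TTX/APV it was at 0 in 3 libraries and at 0.371 CPM in the other, 1 count, and in 6 h KCl at 16.8, 28.01 and 14.4 CPM. The ratio at 6 h was 304, with an exact 95% interval of 54.0 to 12060 that covers counting error only. The 1090-base transcript was at 0 to 4.82 CPM at rest and at 63.5, 69.1, 62.3, 69.1 and 58.8 CPM in 1 h KCl, 51.3-fold higher. It was listed at 0 in all 4 libraries of 7 h TTX/APV and had 17.0, 14.9 and 13.9 CPM in 6 h KCl. Against the floor of 3 counts over the group this was 78.3-fold higher. The exact 95% interval of the ratio of counts had its lower end at 63.1. Both short transcripts were thus lower in 6 h KCl than in 1 h KCl, yet far above their control.

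Similar on-off patterns at lower levels were seen in 6 further transcripts with the largest folds at 1 h or 6 h. The 893-base transcript had 2 counts over all resting libraries and 14.4 to 17.4 CPM in 1 h KCl, a ratio of 273 (exact 95% interval 75.4 to 2263, counting error only). The ratios at 1 h were 121 for the 344-base transcript (33.1 to 1002), 108 for the 1099-base transcript (29.6 to 899) and 78.1 for the 936-base transcript (21.3 to 650.0), each from 2 resting counts. The 1902-base transcript was listed at 0 in all 9 control libraries. Against the floor of 3 counts it was 63.5-fold higher at 1 h and 19.8-fold higher at 6 h. The lower ends of the exact 95% intervals were 51.2 and 15.7. The 834-base transcript rose 39.5-fold at 1 h and, from 0 in all 4 control libraries, 47.5-fold against the floor at 6 h (lower end of the exact 95% interval 38.3). These 6 transcripts had between 4.46 and 24.2 CPM on average in 1 h KCl.

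At 6 h the largest fold of means among members with more than 3 control counts, 280.3, belonged to the 3568-base transcript. Its 7 h TTX/APV libraries gave 0, 0, 2.13 and 0 CPM and its 6 h KCl libraries 175, 174 and 99.4 CPM. At rest it was at 11.4, 0, 12.4, 12.8 and 11.8 CPM, and in 1 h KCl at 57.2, 135, 67.6, 64.5 and 78.9 CPM, only 8.33-fold higher. The difference between its folds thus lay mostly in the controls: library 3-7 was the only resting one at 0, and after 7 h of blockers 3 of 4 were at 0. The 2006-base transcript showed the same order, with 1.37 ± 0.852 CPM at rest (SD, n = 5), 6.92 ± 0.685 CPM in 1 h KCl (SD, n = 5), 0.187 ± 0.373 CPM in 7 h TTX/APV (SD, n = 4) and 11.9 ± 4.24 CPM in 6 h KCl (SD, n = 3). The 3422-base transcript had 0 to 3.21 CPM in 7 h TTX/APV and 81.9, 64.4 and 88.1 CPM in 6 h KCl, 42.7-fold higher. Its rise at 1 h was 15.8-fold. Its resting libraries were uneven, at 0.109, 8.64, 4.81, 20.6 and 0.000561 CPM.

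A pair of members in this list rest on weak ground. The 4473-base transcript was listed at 0 in all 4 libraries of 7 h TTX/APV and at 7.32, 17.3 and 5.52e-07 CPM in 6 h KCl. It passed the condition on overlap only because an estimate far below 1 count is above 0. The 3310-base transcript was at most at 0.00451 CPM in 7 h TTX/APV and at 14.8, 8.55 and 1.13 CPM in 6 h KCl, but at 0, 11.1, 10.8, 0.999 and 10.7 CPM at rest. Such near-zero values beside values of several CPM in the same group are estimates of kallisto, which divides reads among transcripts that share sequence, and whether this division shifted between groups was not tested for any member.

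Levels can be set against each other between transcripts only per length, which the TPM values deposited by the authors give. In 1 h KCl the 631-base transcript was highest, at 576 ± 37.2 TPM (SD, n = 5), followed by the 3036-base transcript at 275 ± 30.8 TPM (SD, n = 5) and a 491-base transcript at 143 ± 14.5 TPM (SD, n = 5). The next 4 did not differ beyond their spread: 1090 bases at 113 ± 8.07 TPM, 1533 bases at 108 ± 21.6 TPM, 1648 bases at 105 ± 9.13 TPM and 4191 bases at 104 ± 10.6 TPM (SD, n = 5 each). In 6 h KCl the 491-base transcript, at 141 ± 18.4 TPM (SD, n = 3), was near its 1 h KCl level. The 631-base transcript was at 63.2 ± 23.9 TPM (SD, n = 3). The 491-base, 1533-base and 1648-base transcripts are named here for their TPM, after the values were seen.

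The members had a median length of 2774.5 bases (323 to 12629), beside 2975 for the 22983 transcripts with at least 3 CPM in 1 h KCl. Of the members 27 (16.46%) were shorter than 1000 bases, beside 14.6%, and 12.2% had 5000 bases or more, beside 19.1%. Folds were larger among short members, which also had lower resting levels. The median fold at 1 h was 6.61 for the 27 members under 1000 bases, 3.78 for those from 1000 to under 5000 bases and 2.68 for the 20 longer ones, and at 6 h it was 5.78, 3.40 and 3.12. The median resting WT level in the same classes was 1.08, 3.73 and 7.23 CPM. Whether the folds go with length apart from level was not tested. A pair of 654-base members had the same estimated counts in all 24 libraries within 1% of the highest, so they cannot be told apart and carry 1 measurement.

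The rule by itself makes every member higher with KCl in each culture code that had both libraries, so only the sizes per code are described. With 0.5 CPM added to each value, the median log2 fold over members at 1 h was 2.11 in 3-4, 1.92 in 3-7, 1.83 in 4-2, 1.61 in 4-3 and 1.67 in 4-4. At 6 h it was 1.83 in 3-7, 1.87 in 4-2 and 1.49 in 4-4. Of the 164 members, 100 were at least 2-fold up in all 5 codes at 1 h and 115 in all 3 codes at 6 h. The median coefficient of variation between libraries was 29.4% in resting WT over the 83 members with at least 3 CPM there. It was 18.2% over all 164 in 1 h KCl. For all transcripts with at least 3 CPM in the same group it was 21.5% and 19.5%. The rule used these libraries and their overlap, and the 2 sets of members differ in size and level. Nothing is therefore read from the difference in spread.

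Many transcripts lay close to the limits of the rule. The lowest mean in 1 h KCl among members was 3.01 CPM, and the nearest transcript that failed this condition alone had 2.999 CPM. At 1 h the nearest folds were 2.02 inside and 1.98 outside, and at 6 h 2.00 inside and 1.99 outside. The level alone kept out 153 transcripts, the fold at 1 h 80 and the fold at 6 h 70. Overlap of libraries alone kept out 59 at 1 h and 34 at 6 h.

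Resting KO libraries were not used by the rule, so the members' levels there are a measurement of their own. The resting WT libraries were used by it, however, and the comparison of genotypes is therefore not independent of how the members were chosen. The summed level was 1805 ± 322 CPM in KO (SD, n = 7), beside 1326 ± 181 CPM in resting WT (SD, n = 5). The 7 KO libraries gave 1493, 1530 (2-3), 1559, 1694, 1937, 2098 and 2328 CPM, and the 5 WT libraries 1172, 1243, 1280, 1296 and 1639 CPM. The genotypes overlapped, since WT library 4-3 lay above 3 of the KO libraries. The mean was higher in KO for 126 members (76.8%), beside 48.3% of all transcripts with at least 3 CPM in 1 h KCl, and lower for 38 (23.2%), beside 51.7%. In 56 members (34.1%) the KO mean lay above the highest WT library, beside 14.7%. The choice of members for low resting WT libraries bears on these shares.

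Of the 164 members 124 had enough counts to be tested (edgeR, KO against WT at rest, p-values adjusted by Benjamini-Hochberg over 32904 transcripts). In KO 7 members were higher (5.65%) and 0 lower at an adjusted p under 0.05, beside 1.3% of all tested transcripts higher and 1.63% lower. At an unadjusted p under 0.05 it was 36 higher and 2 lower by edgeR, beside 7.36% of all tested transcripts higher and 7.2% lower. DESeq2 called 16 higher and 0 lower of 122 members with an adjusted p, beside 2.91% and 3.09% of all such transcripts. The median log2 fold change was 0.33 over the members tested and 0.01 over all transcripts tested, and 93 of 124 were above 0, beside 16724 of 32904. The 40 members not tested had at most 1.35 CPM on average in resting WT, and 32 of them had a higher mean in KO. The filter on low counts used both genotypes, so a member low in WT was tested only where enough KO libraries held counts. Among low members it thus favoured those higher in KO, which bears on the calls and the median. With no filter the median was 0.42 over all 164 members, with 124 above 0, beside 0.03 over all transcripts (edgeR). The number of members called higher fell to 2 without WT library 3-4, 3-7, 4-2 or 4-4 or KO library 3-2 or 4-7, to 3 without KO library 3-3 and to 4 without KO library 4-8, and was 3 with no filter on low counts. The number over all transcripts fell as well, from 429 higher to between 215 and 272 without the first 6 of these libraries, to 293 and 390 without KO library 3-3 or 4-8, and to 205 with no filter.

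The share was compared with that under a rule that leaves the resting WT libraries out. That rule, chosen after seeing the data, took the level in 1 h KCl and the conditions at 6 h alone and gave 1308 transcripts, the 164 members and 1144 others. Of the 1308, 1250 were tested, 69 were higher (5.52%) and 4 lower in KO, and their median log2 fold change was 0.18 (edgeR). Of the 1144 others alone, 1126 were tested, 62 were higher and 4 lower, with a median of 0.17. The share called higher in the wider set, which holds the members, was close to theirs, and the median was smaller. Among 300 tested transcripts that met the condition at 1 h and not at 6 h, 1 was higher and 1 lower, with a median of 0.17 (edgeR). For those with at least 3 CPM in 6 h KCl that met the condition at 6 h and not at 1 h, 1331 were tested. Of these 70 were higher and 4 lower, with a median of 0.18 (edgeR), so calls in KO were not particular to the members. No test of the difference between these sets was made.

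**Figure D4:**
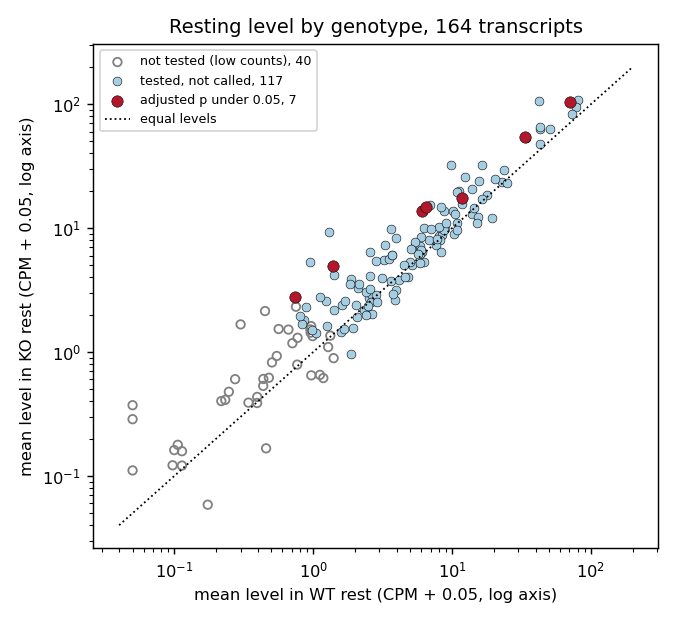
Mean CPM at rest in WT (x axis) and KO (y axis) for the 164 members, both on log axes after adding 0.05 CPM; filled red points passed the edgeR threshold, blue points were tested and did not, open points had too few counts. Most points lie above the dotted line of equal levels, 126 members having a higher mean in KO.

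The 4191-base transcript, ENSMUST00000047906.9, had the smallest adjusted p of the members. It had 45.04 CPM in the lowest KO library, a median of 51.8 and 63.8 in the highest, all above the highest WT library at 36.5 CPM. The WT mean of 33.6 ± 2.99 CPM (SD, n = 5) stood against a KO mean of 53.9 ± 6.67 CPM (SD, n = 7). The difference was 0.69 on the log2 scale with an SE of 0.0962 and an adjusted p of 0.00338 (edgeR). KO neurons at rest had thereby gone 8.75% of the way from the resting WT level to that of 1 h KCl. The 9288-base transcript also had no overlap between genotypes, with 59.9 to 81.7 CPM in WT and 83.6 to 125 CPM in KO. Its mean went from 70.6 ± 8.83 CPM (SD, n = 5) to 104 ± 15.1 CPM (SD, n = 7), a log2 difference of 0.56 with an SE of 0.127 and an adjusted p of 0.0347 (edgeR). In 1 h KCl it was at 202, 195, 213, 179.9 and 172 CPM, above every KO library. WT libraries of 7 h TTX/APV, without KCl, gave 93.2, 107, 88.6 and 93.1 CPM for this transcript. These lay above every resting WT library and within the KO range. In 6 h KCl it was at 252, 196 and 216 CPM.

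The 9332-base transcript was low in WT, at 0.170, 0.964, 0.805, 0.924 and 0.588 CPM. In KO it ranged from 2.15 to 3.62 CPM with a median of 2.77, above every WT library in 7 of 7, and 2 of the 7 reached its 1 h KCl range of 3.22 to 4.62 CPM. The log2 difference was 1.95 with an SE of 0.357 and an adjusted p of 0.0125 (edgeR). The 5223-base transcript showed a similar step with more spread, from 1.05, 1.23, 1.40, 1.49 and 1.47 CPM in WT to 1.30 to 7.89 CPM in KO with a median of 4.89, above every WT library in 6 of 7. Its log2 difference was 1.90 with an SE of 0.425 and an adjusted p of 0.0337 (edgeR). Both resting KO levels covered much of the distance to 1 h KCl, 65.2% for the 9332-base and 70.8% for the 5223-base transcript. Both passed the filter on low counts through their KO libraries, so they were tested only because they were high there. With no filter the adjusted p was 0.0388 for the 9332-base and 0.0649 for the 5223-base transcript (edgeR).

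The 6471-base transcript was the called member whose KO mean matched that of 1 h KCl. It had 3.68, 6.63, 5.87, 8.88 and 6.92 CPM in resting WT, 7.45 to 19.3 CPM with a median of 14.9 in KO, and 17.3, 13.6, 14.2, 15.0 and 13.2 CPM in 1 h KCl. Its log2 difference in KO was 1.19 with an SE of 0.254 and an adjusted p of 0.0277 (edgeR), and 6 of 7 KO libraries were above every WT library. In 6 h KCl the transcript was at 33.2, 30.1 and 31.1 CPM, above every KO library. In 7 h TTX/APV, without KCl, it was at 13.1, 9.97, 2.50 and 15.7 CPM, which reaches into the KO range. The 1071-base transcript went from 4.64, 4.26, 6.21, 9.50 and 5.53 CPM in WT to 8.43 to 19.9 CPM in KO with a median of 15.3, with 5 of 7 above every WT library (log2 difference 1.19, SE 0.287, adjusted p 0.0462 by edgeR). The 1979-base transcript went from 12.02, 13.7, 11.6, 8.98 and 12.5 CPM to 13.3 to 20.9 CPM with a median of 17.6, with 6 of 7 above (log2 difference 0.59, SE 0.141, adjusted p 0.0450 by edgeR). Both lay below their 1 h KCl libraries, at 25.9 to 30.5 CPM and 22.7 to 26.8 CPM.

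Of the 7 called members, the 4191-base and 9332-base transcripts were called in all 18 alternative analyses, with highest adjusted p-values of 0.0141 and 0.0433. The other 5 each lost the call in 7 to 13 of the 18, with highest adjusted p-values of 0.103 for the 9288-base, 0.120 for the 1071-base, 0.182 for the 1979-base, 0.0776 for the 6471-base and 0.0902 for the 5223-base transcript (edgeR or DESeq2). All 7 kept a positive log2 fold change in each of them.

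**Figure D5:**
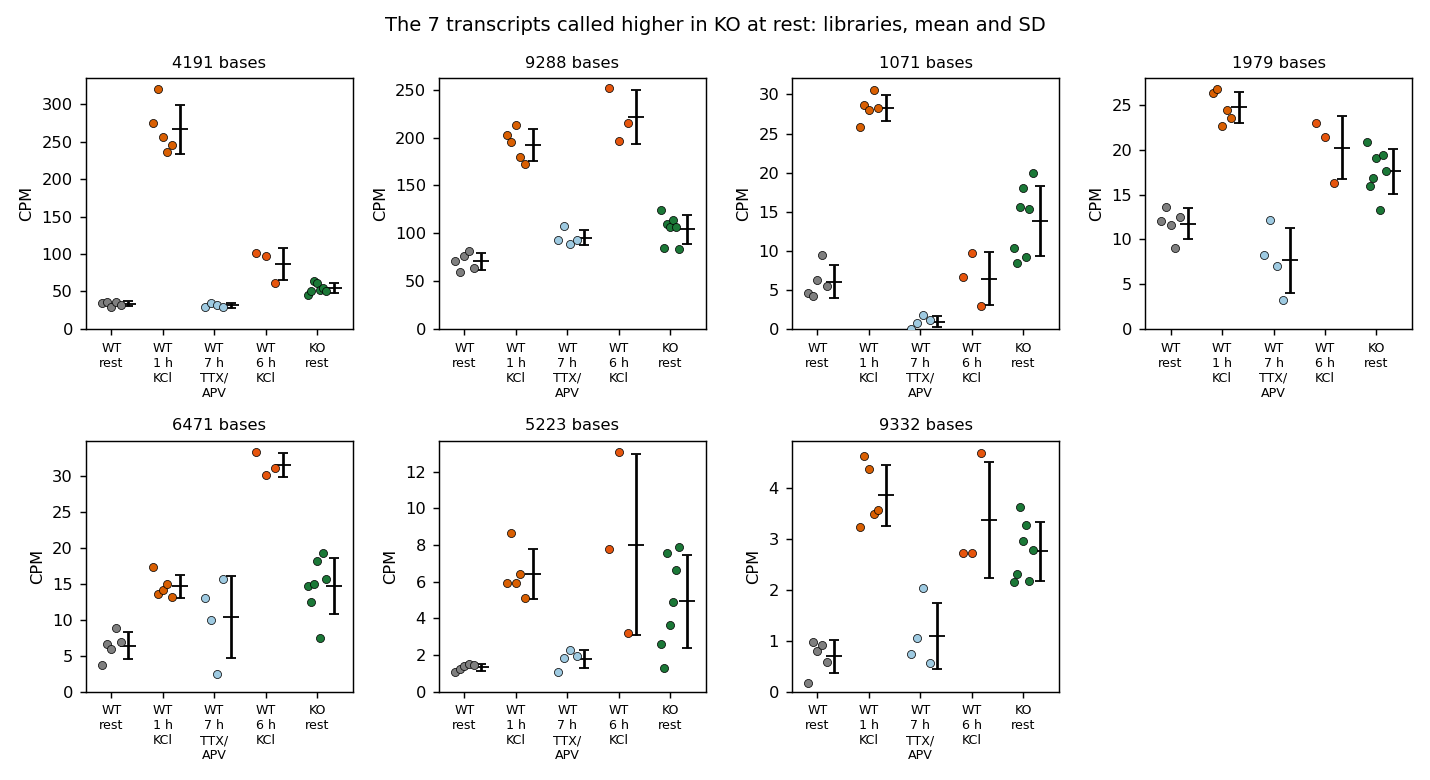
CPM in every library (points; mean and SD beside them) of the 7 members called higher in resting KO than in resting WT by edgeR, each panel named by transcript length with its own linear axis from 0. KO libraries lie above all resting WT libraries in 7 of 7 for the 4191-base, 9288-base and 9332-base members, and the 6471-base member is the one whose KO mean reaches that of 1 h KCl.

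Set against the distance from rest to 1 h KCl, most members had gone a small part of the way in KO. The rule chose members with a distance at least as large as their resting mean. That choice bears on these percentages, which do not measure the size of the KO difference itself. The median member had gone 5.71% of the way from rest to 1 h KCl, 13 had passed the midpoint, and 2 had a KO mean above that of 1 h KCl. One of these 2 is the 6471-base transcript. The other, 3453 bases long and named after its values were seen, averaged 2.52 ± 1.34 CPM in WT (SD, n = 5) and 6.34 ± 2.04 CPM in KO (SD, n = 7) and did not pass the test (log2 difference 1.32, adjusted p 0.111 by edgeR). Genotypes did not overlap in 4 of the 124 tested members with KO above WT, beside 1.5% of all tested transcripts, and in 0 with KO below, beside 2.24%. Besides 3 of the called ones these include a 4173-base transcript with 1.36 ± 0.342 CPM in WT (SD, n = 5) and 2.14 ± 0.350 CPM in KO (SD, n = 7) and an edgeR adjusted p of 0.219, named for this after its values were seen.

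None of the 14 members with the largest folds of means at either time was called in KO, but this cannot be read as a lack of difference. Of the 14, 8 had too few counts to be tested. The other 6 did not pass, and all 6 had a log2 difference above 0. Large folds go with low controls, and resting WT was the control at 1 h, so the choice itself favoured members with few counts in this test. Whether members with large KCl responses differ in KO is therefore left undecided. The 1090-base transcript had 2.49 to 20.9 CPM in KO beside 0 to 4.82 CPM in WT (log2 difference 2.80, SE 0.959, adjusted p 0.169 by edgeR). The 3568-base transcript had 10.7 to 64.0 CPM beside 0 to 12.8 CPM (log2 difference 1.73, SE 0.717, adjusted p 0.277 by edgeR). The means of both were higher in KO, but single libraries spread widely within each genotype. Of the members with the most reads in 1 h KCl, the 3036-base transcript had 14.6 to 22.4 CPM in KO with a median of 20.8, and 6 of 7 KO libraries were above the highest WT library at 16.9 CPM. It did not pass either (log2 difference 0.81, SE 0.286, adjusted p 0.181 by edgeR). The 5713-base transcript had 55.5 to 191 CPM in KO beside 26.0 to 76.1 CPM in WT, with 4 of 7 above every WT library (log2 difference 1.33, SE 0.364, adjusted p 0.0801 by edgeR).

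Single resting libraries moved many members together. Among the 5 WT libraries, 4-3 gave the highest value for 52 of the 124 tested members (41.9%), beside 20.1% of all tested transcripts. Among the 7 KO libraries, 3-3 gave the highest value for 43 (34.7%), beside 15.0%. KO libraries 3-2, 3-3 and 4-7, picked out after the values were seen, were the 3 highest KO libraries for 24 members (19.4%), beside 3.78% of all tested transcripts. Without KO library 3-3 the median log2 fold change of the members in KO was 0.22, and without WT library 4-3 it was 0.43 and 10 members were called higher. What sets these libraries apart was not tested.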

How the data were processed

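Libraries were prepared from total RNA by a kit that keeps strand, according to the protocols in the labels. Each deposited file gives, per the file headers, an estimated count, an effective length and the authors' TPM for each of 115270 transcripts. Among the tools in the submitters' processing notes are kallisto 0.44.0, which makes such estimates, and DESeq2, and the notes name mm9 and mm10 as builds with no role given. CPM was computed from the deposited estimated counts and library totals. Estimated counts, rounded to whole numbers, were fitted over all transcripts with edgeR 4.0.16 in R 4.3.3 (quasi-likelihood F-test, robust, TMM scaling, filterByExpr by group), each fit holding the groups compared, with Benjamini-Hochberg adjustment and a threshold of 0.05. The fits were tested on simulated data with a fixed dispersion and changes placed only in transcripts at higher levels. Low or more variable members are not covered by that check. Standard errors are the log2 fold change over the square root of F. No test is given for KCl contrasts, which chose the members.

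Members and lists were chosen with earlier results of these data known. Values are given for the 8 members with the highest mean CPM in 1 h KCl, the 8 with the largest fold at each time and those called in KO, 26 in all. Alternatives were other scalings, DESeq2 1.42.0, no filter, all RNA libraries in one fit, a culture code covariate or block, other limits of the rule and leaving out each library. The series calls the cultures biological replicates, so p-values measure the spread between these cultures. Ratios with control counts of 1 to 3 carry exact intervals (scipy 1.17.1), which cover counting error only. For members without control counts only the lower end of the interval is given, beside the fold against the floor. Gene lists, cell type markers and ATAC-seq counts were not used here, because identifiers were not paired with genes.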

Additional observations from a re-analysis of the deposited data

Results flagged for a closer look

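For each of the 26 transcripts described and for the summed level, groups of 4 or more libraries were searched for a library far from the others. Of 101 groups, 16 held one. Some groups were at 0 except for a single library, which then stands apart by itself, and the same libraries recur across transcripts. A number expected by chance is therefore not given. WT resting library 4-3 stood apart on the high side in the summed level (1639 CPM) and in the 11013-base (106 CPM), 1090-base (4.82 CPM), 4473-base (3.50 CPM) and 1099-base (0.235 CPM) transcripts. WT resting library 3-7 stood apart with 0 CPM of the 3568-base transcript and 0.249 CPM of the 344-base transcript. In 1 h KCl, library 3-7 was high for the 3568-base (135 CPM) and 3310-base (46.0 CPM) transcripts and library 4-3 for the 2006-base transcript (8.15 CPM). In 7 h TTX/APV single libraries were high, 3-7 for the 631-base transcript (0.371 CPM), 4-2 for the 3568-base (2.13 CPM) and 3-4 for the 2006-base transcript (0.746 CPM). In KO, library 2-3 was low for the 4545-base transcript (62.7 CPM) and high for the 1902-base transcript (1.28 CPM), and 3-5 was high for the 4473-base transcript (15.7 CPM). Several of these values are below 3 counts.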

How the results depend on the processing

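The number of members was 247 with a minimum of 1 CPM, 72 with 3-fold in place of 2-fold, 369 with no requirement on overlap and 97 with the replicate block (at least 2-fold in every culture code), of which 75 are among the 164. It was 214 with TMM, all 164 among them, and 206 with TPM, which keeps 137 of the 164. Without single WT libraries it was 165 to 184, with 156 to 163 of the 164 kept. The median log2 fold change was 1.86 to 2.06 at 1 h and 1.84 to 2.07 at 6 h without single libraries, and 2.06 and 1.95 with the culture code as replicate block. Same-code libraries were not taken as pairs: the correlation of their deviations was -0.00 to 0.09 at 1 h and 0.04 to 0.08 at 6 h, and 2 of 5 and 3 of 3 codes correlated best with their own. Members called higher in KO numbered 3 with no filter, 16 by DESeq2, 10 in one fit of all RNA libraries and 2 to 10 without single libraries. The median log2 fold change in KO stayed above 0 in all settings, at 0.22 to 0.45 without single libraries. It was 0.44 with the leading number of the code as a covariate. KO libraries 1-1 and 2-3 share no leading number with a WT library, so they do not inform the genotype difference in that fit. Leaving out libraries lowers the number in a group, and the cause of the lost calls was not tested. Members below about 1.35 CPM in resting WT were mostly out of reach of the test at this depth, unless enough KO libraries held counts.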
